A study of Xenopus laevis with 6 samples.

Results

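The 6 genes described here encode enzymes of sugar breakdown and of malate oxidation in Xenopus laevis: the enolase gene eno3.L, the aldolase gene aldoc.L, the triosephosphate isomerase gene tpi1.S, the phosphoglycerate mutase gene pgam2.L and both copies of the mitochondrial malate dehydrogenase gene, mdh2.L and mdh2.S. The .L and .S endings mark gene pairs left by an ancient genome duplication. Members were taken by gene symbol from the platform's gene table, which gave 7531 distinct symbols to probe sets with 1 symbol. They had been picked for their lower signal in bhh-treated explants, so the difference between the groups is described for them and not tested. The 6 symbols were held by 11 probe sets, 10 listed for 1 symbol and 1 listed for both mdh2.L and mdh2.S, and all 11 were bright enough to enter the fit over 11618 probe sets.

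Pronephric explants, pieces of embryonic flank from the region that forms the larval kidney, were cut at stage 24. There were 3 pools of explants treated with bhh (banded hedgehog, a secreted hedgehog protein whose gene is now named ihh) and 3 pools of untreated explants. The labels give no genotype, strain, mock treatment or way of supplying bhh, and each pool of 300 explants, of about 70 × 100 × 70 µm, was hybridised to 1 Affymetrix array. The unit throughout is the MAS5 signal, a linear intensity per probe set that the authors had scaled to a common level, with a trimmed mean of 500.1 on every array and array medians from 148.7 to 169.2. Nothing says that the pools came from separate batches of embryos, so the p-values measure the spread between these pools, and 3 arrays a group limit the precision. The signal of ihh.S was 3121.3, 2956.6 and 2824.2 on treated arrays 1, 2 and 3, against 36.0, 14.3 and 17.8 on untreated arrays, so the libraries go with their labels.

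Glycolysis splits glucose into pyruvate in the cytosol. Aldolase cuts fructose bisphosphate into a pair of triose phosphates, triosephosphate isomerase interconverts them, phosphoglycerate mutase moves the phosphate of phosphoglycerate, and enolase forms phosphoenolpyruvate. Malate dehydrogenase 2 oxidises malate in the mitochondrial matrix, where it serves the TCA cycle and the malate-aspartate shuttle, which carries the reducing power of cytosolic NADH into mitochondria. In mammals ENO3 and PGAM2 are the muscle forms of their enzymes, while ALDOC is known as the brain form of aldolase and TPI1 and MDH2 are expressed widely. The name "muscle-type" thus applies by known isoform to eno3.L and pgam2.L alone. Somites, the source of trunk muscle, lie next to the pronephric rudiment in the flank.

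All 11 probe sets had a lower mean signal in bhh-treated than in untreated explants. In 10 of them every treated array lay below every untreated array, and 1 dim tpi1.S probe set overlapped. Over all probe sets tested, the treated arrays lay wholly below the untreated ones for 9.01%. In the limma fit across all probe sets, 7 of the 11 passed an adjusted p of 0.05 downward, where 0.637% of all probe sets did, and 9 passed with the replicate number as a block, where 2.66% did. The 7 without a block became 1 when untreated array 2 was left out (aldoc.L) and 1 without untreated array 3 (eno3.L). They became 2 without treated array 2 or treated array 3, 6 without treated array 1 and 9 without untreated array 1. The members were chosen on this contrast, so these shares describe them and give no support. No array gave a member a signal under 37.6, a control level set at the 95th percentile of signal over 44 control probe sets that read no frog gene.

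**Figure D1:**
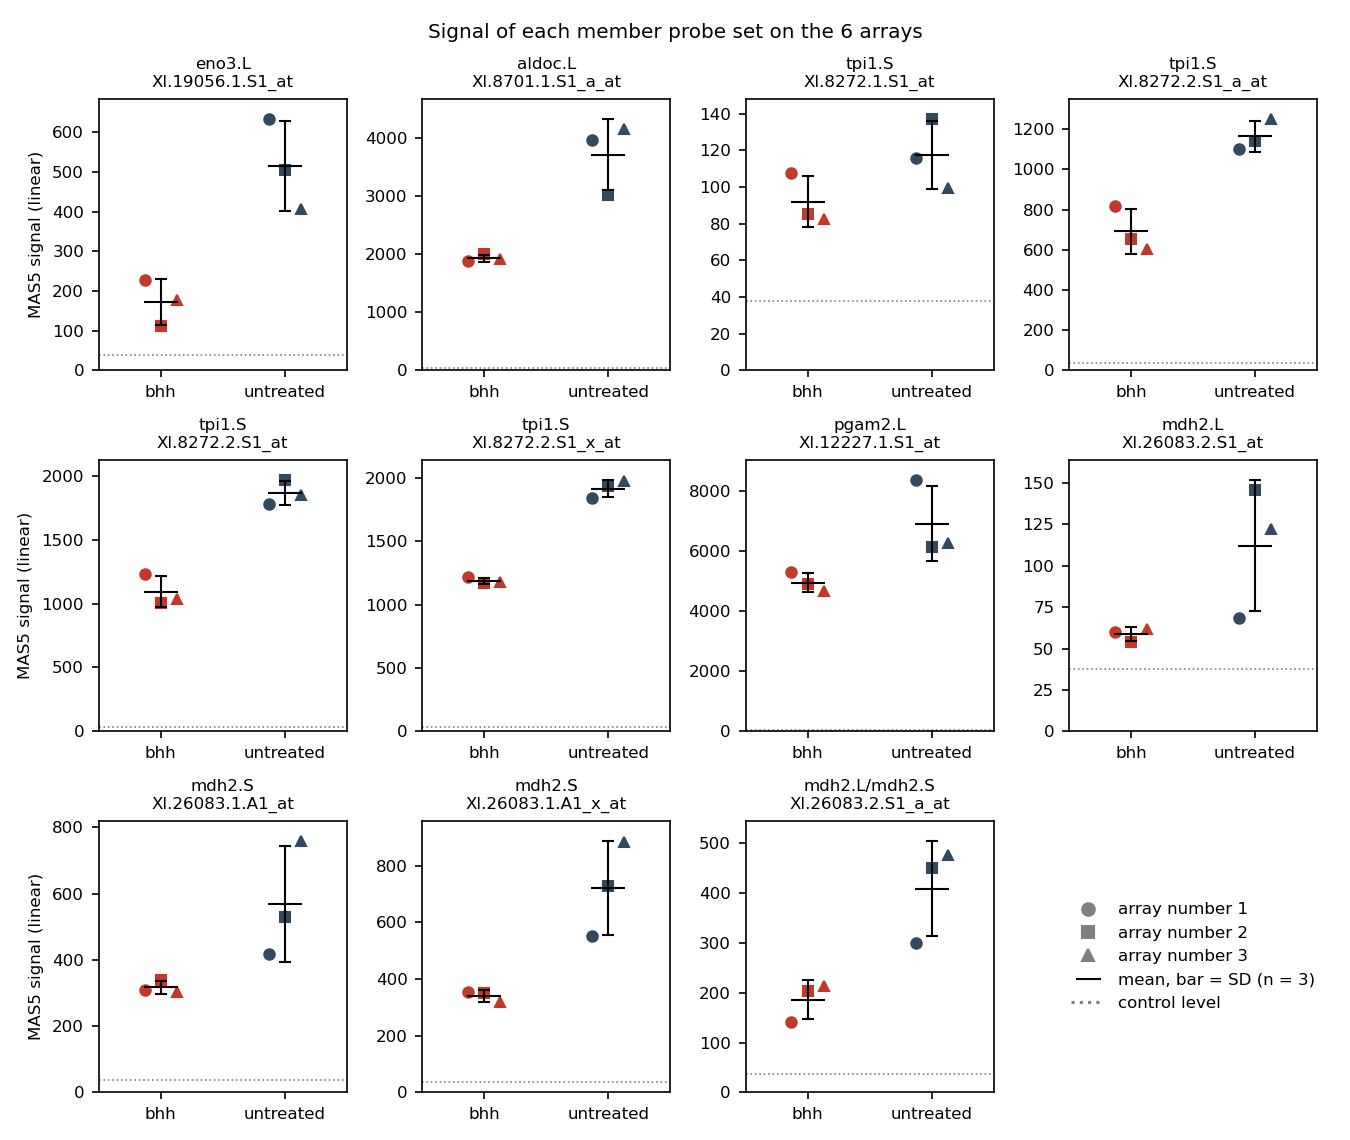
MAS5 signal (linear axis from 0) of the 11 member probe sets on the 3 bhh-treated and the 3 untreated arrays; the symbol gives the array number, the black bars the mean and SD, and the dotted line the control level of 37.6. The treated arrays lie below the untreated arrays in every panel but that of the dimmest tpi1.S probe set, and mdh2.L is the member nearest to the control level.

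The aldolase gene aldoc.L had a signal of 1876.3, 1998.7 and 1915.1 on bhh-treated arrays 1, 2 and 3, against 3963.7, 3016.6 and 4164.5 on untreated arrays 1, 2 and 3. The treated arrays lay close together and the untreated ones spread further, with array 2 lowest. The means were 1930 ± 62.6 in treated and 3715 ± 613 in untreated explants (SD, n = 3 each). On the log2 scale the difference was -0.93 ± 0.14 (SE), or 1.91-fold lower. Within arrays of the same number the log2 differences were -1.08, -0.59 and -1.12. No probe set was listed for the duplicate copies aldoc.S, eno3.S, tpi1.L and pgam2.S, so they could not be analysed here.

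The names of the 4 probe sets of tpi1.S share a stem, and 3 of them differ in the suffix alone. By their names these 3 were made from the same target sequence, so they are not independent readings of the gene. Of these, the one named with the plain suffix _at gave 1234.6, 1006.8 and 1038.4 in treated explants, against 1776.8, 1966.2 and 1848.5 in untreated explants, with a log2 fold change of -0.77 ± 0.13. The groups were well apart, and treated array 1 was the highest treated array. The brightest, with the suffix _x_at that marks probes which may also match other sequences, gave 1216.1, 1171.3 and 1179.1 in treated explants, against 1839.7, 1932.6 and 1972.9 in untreated explants (-0.69 ± 0.12). The one with the suffix _a_at had -0.76 ± 0.15. The fourth, named for another sequence of the same stem, was dim. It gave 107.8, 85.4 and 82.7 in treated explants, against 115.6, 137.0 and 99.6 in untreated explants. Its log2 fold change was -0.35 ± 0.22, and here treated array 1 lay above untreated array 3. Its values were the only ones among the 11 probe sets in which the groups met.

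The phosphoglycerate mutase gene pgam2.L was read brightly, at the 97.5th percentile of mean signal among all 15491 probe sets that are not controls. Its signal was 5305.4, 4905.5 and 4657.3 in treated explants, against 8367.2, 6127.3 and 6259.3 in untreated explants. Both groups were highest on their array 1, and the gap between the lowest untreated and the highest treated array was small beside that of untreated array 1. The log2 fold change of -0.47 ± 0.15, 1.38-fold lower, was the smallest of the 6 genes at their brightest probe sets, and it lay between -0.55 and -0.32 when 1 array was left out.

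The enolase gene eno3.L had the largest difference of the 6 genes. Its signal was 226.8, 112.6 and 178.5 in treated explants, against 633.4, 505.6 and 407.7 in untreated explants. Every treated array lay well below every untreated one, and both groups were highest on array 1. The log2 fold change was -1.61 ± 0.26 (SE), 3.06-fold lower, which ranked 15th from the lowest among 11618 probe sets. Within arrays of the same number the differences were -1.48, -2.17 and -1.19, so the number 2 arrays differed most, in contrast to aldoc.L.

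The mitochondrial mdh2 genes were read by 4 probe sets, whose names share a stem. For mdh2.S, the brighter probe set, with the suffix _x_at, gave 353.5, 350.4 and 317.6 in treated explants, against 553.1, 730.0 and 883.5 in untreated explants. The treated arrays were alike while the untreated ones differed, with untreated array 1 lowest. Its log2 fold change was -1.06 ± 0.18, 2.09-fold lower. The other mdh2.S probe set gave 307.7, 340.3 and 302.2 in treated explants, against 417.2, 530.3 and 758.5 in untreated explants, with the same order among untreated arrays and a log2 fold change of -0.80 ± 0.20.

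The mdh2.L probe set was dim, at the 35.0th percentile of mean signal among all 15491 probe sets that are not controls, before the dimmest 25% were removed. It gave 59.9, 54.3 and 62.1 in treated explants, against 68.5, 145.7 and 122.5 in untreated explants. Untreated array 1 was only slightly above the treated arrays, and the log2 difference within number 1 was -0.19, against -1.42 and -0.98 within numbers 2 and 3. Over all arrays the log2 fold change was -0.87 ± 0.29, and it ranged from -1.19 to -0.64 when 1 array was left out. The probe set listed for both copies gave 141.9, 203.4 and 214.0 in treated explants, against 299.6, 450.2 and 477.1 in untreated explants. It was lowest on array 1 of both groups, and its differences within numbers 1, 2 and 3 were nearly equal, at -1.08, -1.15 and -1.16. Because the mdh2.L probe set was dim and the shared one reads both copies, the data separate the copies only in part. The brighter mdh2.S probe set, by its suffix _x_at, may also match other sequences.

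The members differed in which arrays of a group were high. Among untreated arrays, array 1 was the highest for eno3.L and pgam2.L and the lowest for all 4 mdh2 probe sets. Among treated arrays, array 1 was the highest for eno3.L, pgam2.L and all 4 tpi1.S probe sets. The hybridization control probe sets, which read spiked RNA, also differed by number, with medians of 1795, 1393 and 780 on treated arrays 1, 2 and 3, against 2235, 1233 and 879 on untreated arrays 1, 2 and 3. The signal ratio of the 3′ to the 5′ GAPDH control was 4.42, 3.67 and 3.01 on treated arrays, against 4.10, 3.59 and 3.31 on untreated arrays. Their part in the members' pattern was not tested. All 33 differences within a number, 3 for each of 11 probe sets, were below 0. That had to be so for each probe set whose groups lay apart, and the members were chosen on this contrast.

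**Figure D2:**
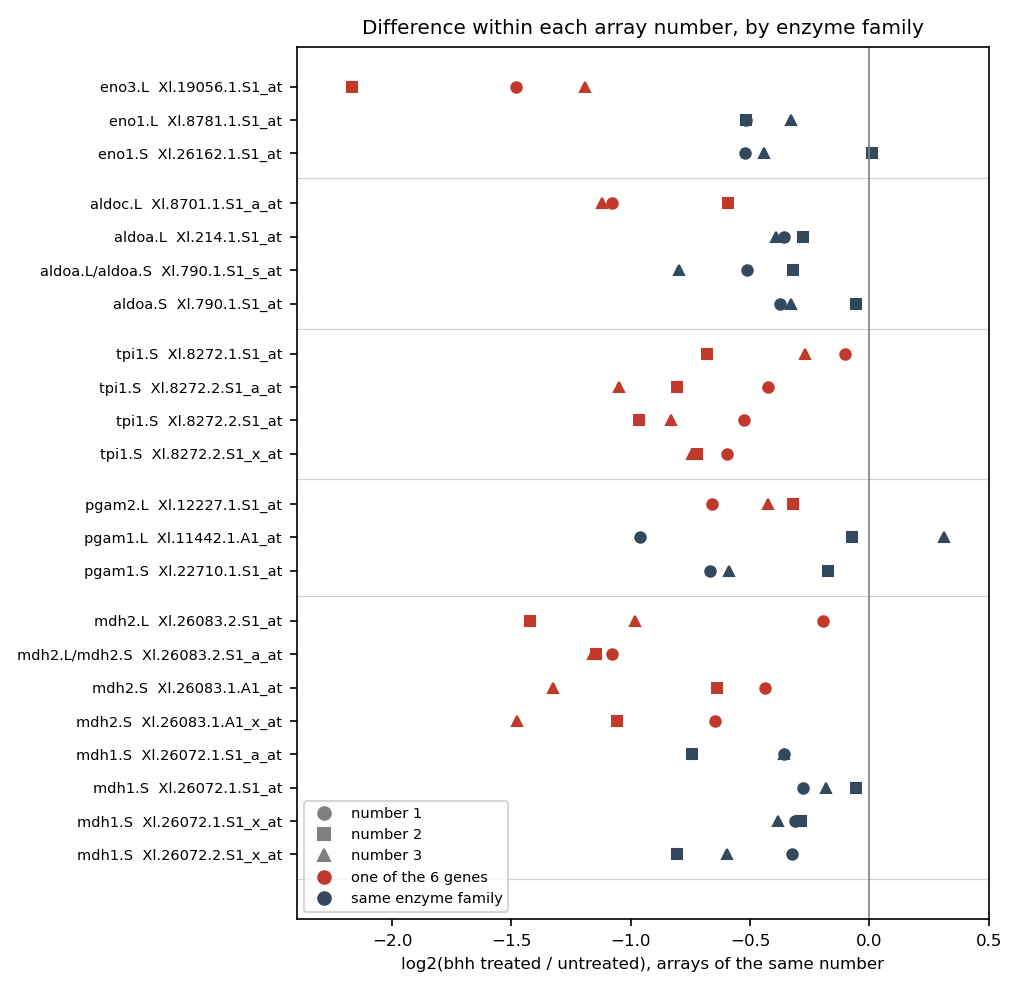
Log2 ratio of bhh-treated to untreated signal between arrays of the same number, for every probe set of the enolase, aldolase, triosephosphate isomerase, phosphoglycerate mutase and malate dehydrogenase families; symbols give the number and red marks the 6 genes. The red points, of genes chosen for a lower treated signal, all lie below 0, from -2.17 to -0.10. Of the relatives, which were not chosen, pgam1.L and eno1.S each have a point above 0, at 0.31 and 0.0093.

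The other members of these enzyme families were not picked by the rule, and none of them passed the test without a block. The widely expressed enolase gene eno1.L had a signal of 9616.9, 7270.3 and 7459.8 in treated explants, against 13763.8, 10414.2 and 9364.7 in untreated explants. The groups overlapped, because treated array 1 exceeded untreated array 3. Its log2 fold change of -0.45 ± 0.18 (limma adjusted p = 0.336) passed with the replicate block (adjusted p = 0.00927), but not when the number 2 arrays were left out of the blocked fit (adjusted p = 0.102). Its partner eno1.S had -0.32 ± 0.16 (adjusted p = 0.463, or 0.105 with the block), and it passed in the blocked fit without the number 2 arrays (adjusted p = 0.0393).

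The aldolase A genes encode the form of muscle and red cells in mammals. The signal of aldoa.L was 14948.0, 15432.5 and 12211.9 in treated explants, against 19159.3, 18731.5 and 15992.6 in untreated explants, without overlap. Its log2 fold change was -0.34 ± 0.16 (limma adjusted p = 0.411). With the block it passed (adjusted p = 0.045), and without the arrays of any 1 number it did not (adjusted p from 0.0784 to 0.179). The partner aldoa.S had -0.25 ± 0.15 (adjusted p = 0.561, or 0.165 with the block). A probe set listed for both aldoa copies had -0.54 ± 0.23 (adjusted p = 0.379, or 0.00535 with the block). Its groups overlapped, and its blocked call held without the arrays of any 1 number (adjusted p up to 0.0115). The phosphoglycerate mutase genes pgam1.L and pgam1.S, the brain form in mammals, were dim and overlapped between the groups. Their log2 fold changes were -0.24 ± 0.27 and -0.48 ± 0.29 (adjusted p = 0.784 and 0.551, or 0.574 and 0.276 with the block).

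For mdh1.S, the cytosolic malate dehydrogenase of the shuttle, 4 probe sets were measured, and their values ranged from -0.58 ± 0.14 to -0.17 ± 0.15. The brightest by mean log2 signal gave 4520.3, 5340.4 and 4612.0 in treated explants, against 5604.9, 6503.9 and 6015.9 in untreated explants. The groups did not overlap, and its log2 fold change was -0.33 ± 0.13 (adjusted p = 0.36, or 0.0531 with the block). Of the other probe sets, 2 passed with the block (adjusted p = 0.00402 and 0.00982), and neither did once the number 2 arrays were left out (adjusted p = 0.062 and 0.167). These family members were tested one by one, and the difference between a member and its relative was not tested, since the members were chosen on this contrast.

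Along the whole glycolytic pathway, 24 genes were measured at their brightest probe sets, of which 23 had a log2 fold change below 0. Over all 11618 probe sets 49.5% were below 0 and the median was 0.0027. Without the members, 19 of 20 were below 0 with a median of -0.25. The treated arrays lay wholly below the untreated ones for 7 of 20, where 9.01% of all probe sets did. None of the 20 passed in limma. At a raw p under 0.05 there were 4 lower and 0 higher. The share of all probe sets at a raw p under 0.05 is not given, so such counts, here and below, only describe the lists. With the replicate block 4 fell, where 2.66% of all probe sets did, and 0 rose. The 4 were aldoa.L, eno1.L, gapdh.L and ldha.S. That count was 3, 1 and 3 when the arrays numbered 1, 2 and 3 were left out. These directions were the same after quantile normalization and after scaling to a common median. The sizes were not all kept under quantile normalization. There the bright aldoa.L went from -0.34 to -0.18 and aldoa.S from -0.25 to -0.07, while gapdh.L went from -0.54 to -0.57. The 49.5% is a share over probe sets of every brightness, and the part of brightness in the list's values was not tested.

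The dehydrogenase gene gapdh.L, whose enzyme makes the NADH of glycolysis, had a signal of 775.9, 725.9 and 633.9 in treated explants, against 1069.9, 1178.5 and 872.3 in untreated explants. The groups did not overlap, and its log2 fold change was -0.54 ± 0.15 (limma adjusted p = 0.149, or 0.00753 with the block and 0.0996 in the blocked fit without number 2). The lactate dehydrogenase gene ldha.S, whose enzyme turns pyruvate into lactate, had 4249.7, 3232.4 and 3595.3 in treated explants, against 6003.3, 4687.7 and 4413.7 in untreated explants. Again no treated array reached an untreated one, and its value was -0.44 ± 0.16 (adjusted p = 0.281, or 0.0117 with the block and 0.119 without number 2). For the first steps of the pathway, the values were those of the hexokinase genes hk1.L (-0.08 ± 0.12) and hk2.L (0.12 ± 0.18), the phosphoglucose isomerase gene gpi.S (-0.18 ± 0.16) and the phosphofructokinase genes pfkm.S (-0.23 ± 0.15), pfkp.L (-0.06 ± 0.13) and pfkp.S (-0.34 ± 0.18). None of these 6 passed with or without the block. They were singled out after their values were seen. The genes of the list not yet named, all of later steps, did not pass in either fit. These were pgk1 (-0.24 ± 0.13), pkm.L (-0.26 ± 0.18), pkm.S (-0.27 ± 0.12), ldha.L (-0.22 ± 0.32), ldhb.L (-0.26 ± 0.33) and ldhb.S (-0.05 ± 0.13).

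**Figure D3:**
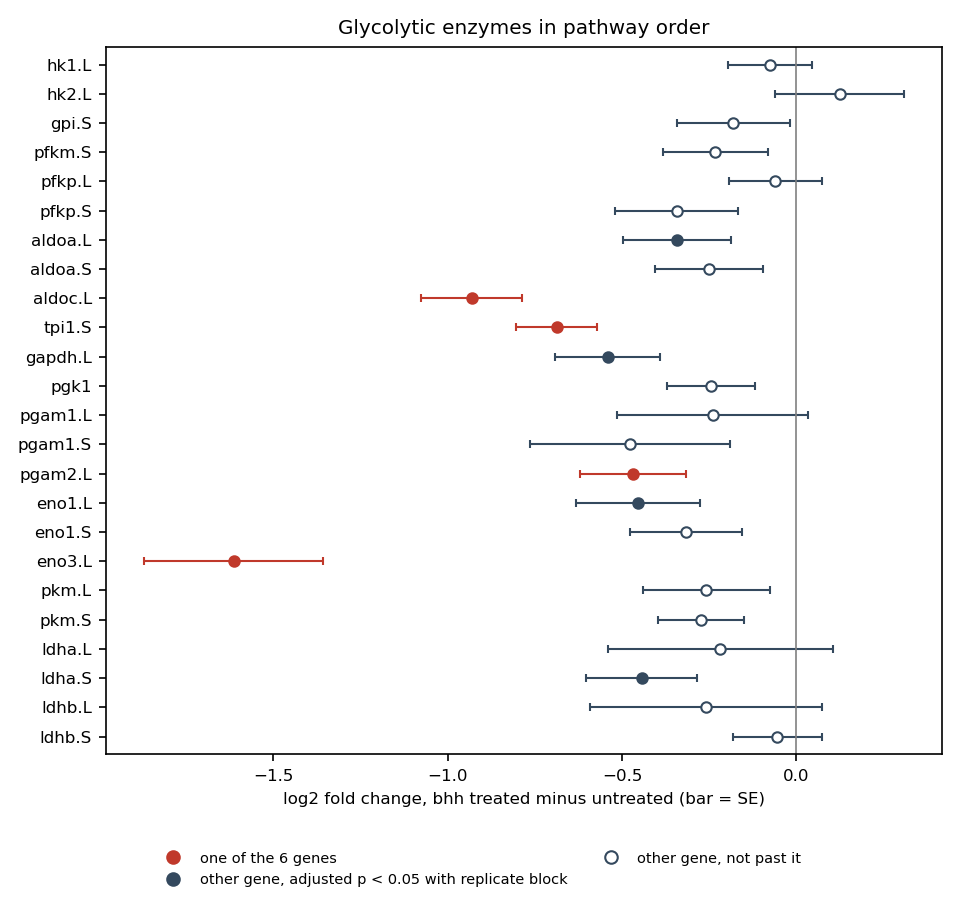
Log2 fold change (bhh-treated minus untreated, horizontal axis, bar = SE) of the 24 measured glycolytic genes at their brightest probe sets, from the first step of the pathway at the top to lactate dehydrogenase at the bottom; red marks members and filled dark points other genes past an adjusted p of 0.05 with the replicate block. hk2.L alone lies above 0, and eno3.L lies farthest below it, at -1.61.

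In the list for sugar uptake and glycogen use, 11 of 15 measured genes were below 0 (12 under quantile normalization or median scaling), with a median of -0.25. None passed in limma, and a raw p under 0.05 was reached by 2 that were lower and 1 that was higher. The glucose transporter gene slc2a4.L, whose product GLUT4 serves muscle and fat in mammals, had a signal of 508.8, 349.5 and 392.3 in treated explants, against 642.0, 635.1 and 707.2 in untreated explants. The groups were apart, its log2 fold change was -0.68 ± 0.16 (adjusted p = 0.0826), and it fell with the replicate block (adjusted p = 0.00507, or 0.0518 without number 2). It also fell in the fit without a block when treated array 1 was left out. The liver-type transporter gene slc2a2.L was higher in the mean, by 0.42 ± 0.17 (adjusted p = 0.337). Its blocked adjusted p was 0.0595, and 0.0473 without number 3. The phosphoglucomutase gene pgm1.L had -0.44 ± 0.19 and the glycogenin gene gyg1.L -0.29 ± 0.15 (adjusted p = 0.381 and 0.463).

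mdh2 belongs to the TCA cycle and to the malate-aspartate shuttle, for which 43 genes were measured together with pyruvate entry. Apart from the 2 mdh2 genes, 30 of 41 were below 0 with a median of -0.22. The treated arrays lay wholly below the untreated ones for 16 of the 41, where 9.01% of all probe sets did. Under quantile normalization 29 of the 41 were below 0, and 32 under scaling to a common median. None of the 41 passed in limma. At a raw p under 0.05, 15 were lower and 1 was higher, with no share over all probe sets to set beside them. Without untreated array 1, 1 of them fell. With the replicate block 7 fell, where 2.66% of all probe sets did, and 0 rose. Without the arrays numbered 1, 2 and 3 the 7 became 10, 3 and 6, with 2 higher without number 1.

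Of these 7 genes, got1.S, got2.L and slc25a12.L encode parts of the malate-aspartate shuttle. Aspartate aminotransferases work on either side of the mitochondrial membrane. The cytosolic one, got1.S, had a signal of 467.2, 697.8 and 651.6 in treated explants, against 763.2, 1048.5 and 1068.9 in untreated explants. Both groups were lowest on array 1, as the mdh2.L/mdh2.S probe set was, and the groups did not overlap. The log2 fold change of got1.S was -0.67 ± 0.19 (limma adjusted p = 0.152, or 0.00148 with the block), and its differences within numbers 1, 2 and 3 were -0.71, -0.59 and -0.71.

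The mitochondrial aminotransferase gene got2.L had 566.3, 732.3 and 811.5 in treated explants, against 940.3, 1312.9 and 1208.1 in untreated explants, again lowest on array 1 of both groups. It had a log2 fold change of -0.72 ± 0.17 (limma adjusted p = 0.0901, or 0.000781 with the block). The aspartate-glutamate carrier gene slc25a12.L, the form of muscle and brain in mammals, had 140.2, 132.4 and 128.1 in treated explants, against 267.2, 208.3 and 215.6 in untreated explants. Its groups were apart, with -0.78 ± 0.18 (adjusted p = 0.0744, or 0.00954 with the block). For got1.S, got2.L and slc25a12.L the blocked call held without the arrays of any 1 number, with adjusted p up to 0.00654, 0.0106 and 0.0404. The remaining shuttle carriers, looked up after those values were seen, did not pass with or without the block: slc25a13.L had -0.36 ± 0.13 (adjusted p = 0.297, or 0.00607 in the blocked fit without number 1), slc25a11.L -0.20 ± 0.18 and slc25a11.S -0.18 ± 0.22.

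In the pyruvate dehydrogenase complex, which feeds pyruvate into the TCA cycle, dlat.L gave 1135.4, 1135.8 and 1234.2 in treated explants, against 1577.7, 1678.5 and 1712.1 in untreated explants. The groups were tight and apart, with -0.50 ± 0.12 (adjusted p = 0.0801). The blocked adjusted p of this probe set, its brightest, was 0.00666, and 0.0587 without number 2. Its other probe sets, at -0.26 ± 0.14 and -0.55 ± 0.22, did not pass in either fit. The remaining genes that fell with the block were not named by the rule for naming genes and are given as its full count: pdhb.L (-0.44 ± 0.13, blocked adjusted p = 0.0251), the succinyl-CoA ligase gene sucla2.S (-0.70 ± 0.24, 0.0473) and the succinate dehydrogenase gene sdha.L (-0.52 ± 0.20, 0.0229). Each of these 3 lost the blocked call without the arrays numbered 2 (adjusted p = 0.102, 0.128 and 0.287). So did pdhb.L without number 3 (0.0881) and sucla2.S without number 1 (0.143). The pyruvate dehydrogenase kinase genes, whose products switch that complex off, did not pass with or without the block, and their signs differed. pdk4.L had 0.45 ± 0.19 and pdk4.S 0.42 ± 0.20 (adjusted p = 0.386 and 0.437). pdk1.L had -0.10 ± 0.20, and pdk1.S had 0.19 ± 0.25 at its brightest probe set and -0.29 ± 0.26 and -0.03 ± 0.19 at the others. The brightest pdk1.S probe set rose only in the blocked fit without number 1 (adjusted p = 0.0345). The kinase genes too were singled out after their values were seen.

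**Figure D4:**
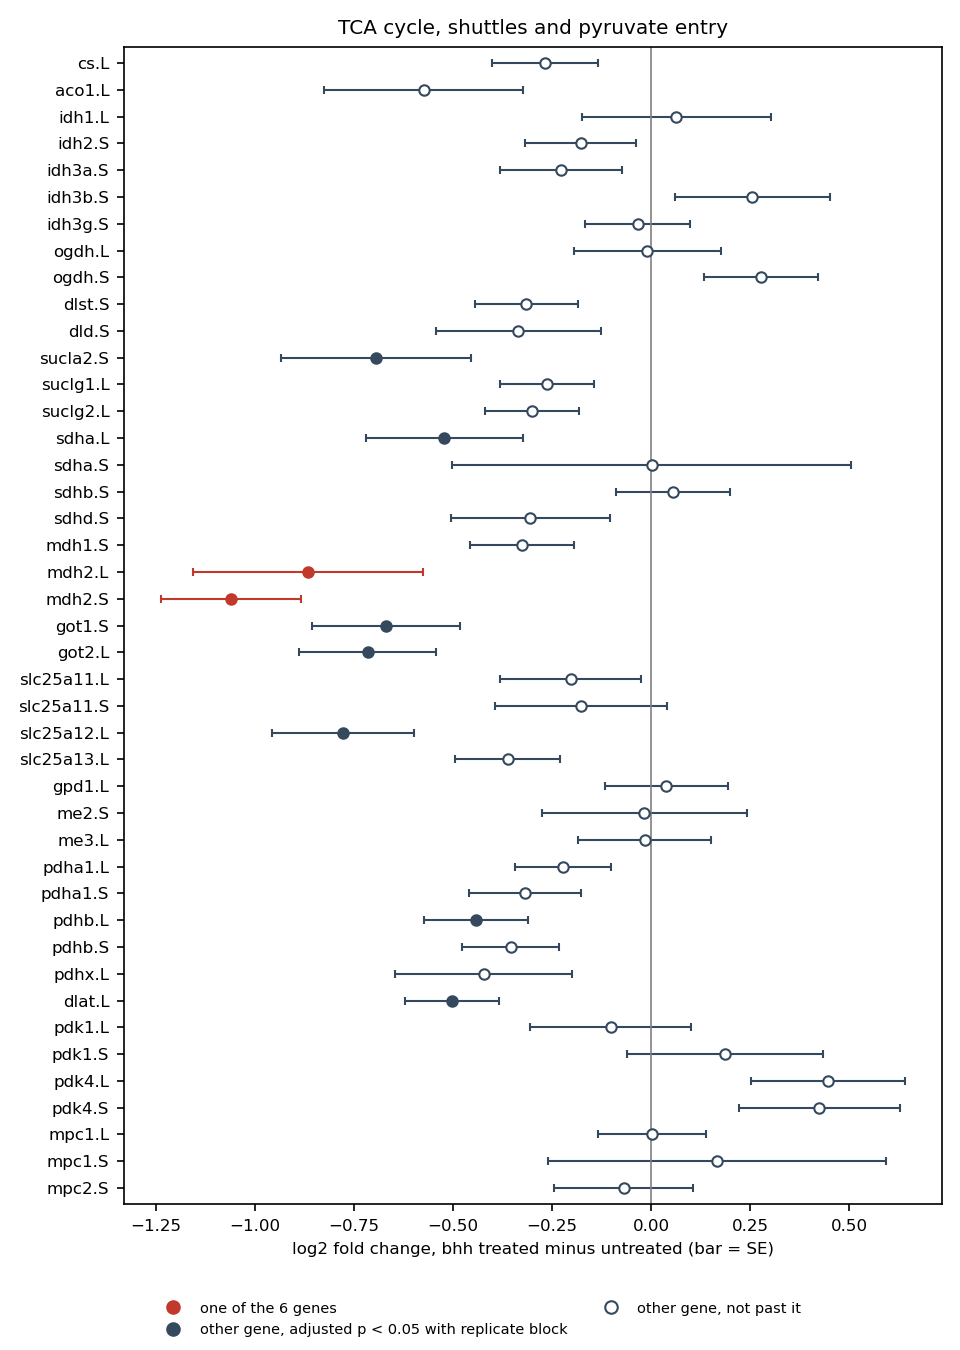
Log2 fold change (bhh-treated minus untreated, bar = SE) of the 43 measured genes of the TCA cycle, the shuttles and pyruvate entry at their brightest probe sets; red marks mdh2.L and mdh2.S and filled dark points other genes past an adjusted p of 0.05 with the replicate block. mdh2.S and mdh2.L lie lowest, at -1.06 and -0.87, followed by slc25a12.L, got2.L, sucla2.S and got1.S.

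Several glycolytic genes are known targets of the hypoxia response, which was read through 12 further genes. In this list 4 were below 0 and the median was 0.14. None passed in limma, while 3 were higher and 0 lower at a raw p under 0.05. With the replicate block 2 rose, where 3.65% of all probe sets did, and 0 fell. The treated arrays lay wholly above the untreated ones for 3 of 12, where 9.3% of all probe sets did. The oxygen sensor gene egln3.L had a signal of 408.7, 494.2 and 556.0 in treated explants, against 298.5, 358.0 and 238.9 in untreated explants, without overlap. Its log2 fold change was 0.71 ± 0.19 (adjusted p = 0.119, or 0.0112 with the block and 0.157 without number 3). The other egln3.L probe sets, at 0.54 ± 0.24 and 0.54 ± 0.25, did not pass in either fit (0.203 and 0.103 with the block), and the latter overlapped between the groups. The stress gene ddit4.S, an inhibitor of mTOR signalling, had 0.54 ± 0.13 (adjusted p = 0.0883, or 0.00831 with the block and 0.0842 without number 3). egln3.S had 0.97 ± 0.31 (adjusted p = 0.218, or 0.0688 with the block) and higd1a.L 0.14 ± 0.14.

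Of the skeletal muscle marker genes, 30 were matched on the array and 24 were bright enough to test. Each of the 24 had a mean above the control level of 37.6, as the brightness filter already required. The desmin gene des.1.S was also measured, but its numbered name was not matched to the list. It lies outside these counts and is given below with the nearest profiles. The summed signal of the 24 ranged from 100885 to 125063 on the treated arrays, against 132916 to 155398 on the untreated arrays. A few very bright genes dominate this sum. The brightest, mylpf.L, averaged 21976 in treated and 27353 in untreated explants, and atp2a1.S 17876 and 22706. Both overlapped between the groups, while the bright tnni2.S did not. Under quantile normalization mylpf.L went from -0.33 to -0.09 and atp2a1.S from -0.34 to -0.15, and 19 of the 24 stayed below 0. Of the 24, 19 were below 0 with a median of -0.46. Without a block 4 fell, where 0.637% of all probe sets did, and 0 rose. All 4 are named here as the full count. These were the myosin gene myh8.L (1.79-fold lower, limma adjusted p = 0.00425), the sarcomere gene myoz1.S (1.63-fold, 0.0174), the tropomyosin gene tpm2.L (1.56-fold, 0.0303) and the myogenic factor gene myf5.L (2.54-fold, 0.0196). The count was 1 when untreated array 2 or 3, or treated array 3, was left out, and 2 without treated array 2. It was 3 without untreated array 1 and 5 without treated array 1. With the block 14 fell, where 2.66% of all probe sets did, and 1 rose. Without the arrays numbered 2, 7 fell and 0 rose. The gene that rose was the myogenic factor gene myod1.S, at 0.79 ± 0.17 without overlap (limma adjusted p = 0.0526, or 0.00588 with the block). In all, 5 of the 24 were above 0: myod1.S, myod1.L (0.36 ± 0.21), myl1.L (0.21 ± 0.16), myl4.L (0.18 ± 0.27) and myl1.S (0.06 ± 0.20). The part of muscle RNA in the members' values was not tested. In bulk RNA, fewer cells of a type and less RNA per cell cannot be told apart.

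The summed signal of the 9 tested pronephros markers ranged from 1529 to 3342 on treated and from 2851 to 5454 on untreated arrays. The brightest, atp1b1.S, makes up much of this sum, and its log2 fold change was -0.07. Of the 9, 3 were lower and 1 was higher, where 0.637% and 0.74% of all probe sets were. As the full count, the lower ones were fxyd2.S (23.62-fold lower, limma adjusted p = 6.04e-06), mecom.L (13.49-fold, 5.38e-05) and lhx1.L (12.71-fold, 0.000307). The higher one was osr1.L (limma adjusted p = 0.0251). The 9 tested lateral plate and heart markers gave 5616 to 5680 on treated and 3013 to 3178 on untreated arrays, with 3 higher, where 0.74% of all probe sets were. For the 8 epidermal markers the sums were 51339 to 74881 on treated and 64151 to 88220 on untreated arrays, and none passed in limma (1 lower, 0 higher at a raw p under 0.05). For the 6 neural and notochord markers they were 1682 to 1784 on treated and 2036 to 2264 on untreated arrays, and none passed (1 lower, 0 higher). The brightest of these, tubb2b.S, averaged 1153 in treated and 1544 in untreated explants and dominates the sum. It alone of the 6 did not overlap between the groups, and the list's median log2 fold change was -0.06. The 10 blood and endothelial markers gave 2449 to 3004 on treated and 2332 to 2524 on untreated arrays, with 1 lower and 0 higher (2 lower, 4 higher at a raw p under 0.05) and a median of 0.31. The 1 lower call, fli1.S (2.33-fold lower, limma adjusted p = 0.0156), was lost without untreated array 2, treated array 2 or treated array 3. With the replicate block fli1.S fell as well (adjusted p = 0.00149), also without the arrays of any 1 number (adjusted p up to 0.0242). The 3 endodermal markers gave 2217 to 2645 on treated and 1957 to 2115 on untreated arrays, with none past the test (1 lower, 2 higher at a raw p under 0.05). With the replicate block, where 3.65% of all probe sets rose, 6 lateral plate and heart markers rose (7, 4 and 5 without numbers 1, 2 and 3). So did 3 blood and endothelial markers (3, 1 and 2), namely aplnr.L, aplnr.S and hba3.L. The block also gave 1 lower epidermal marker, foxi1.L (adjusted p = 0.0345), and 1 lower neural marker, tubb2b.S (adjusted p = 0.0243), and neither list had a lower call without number 2, nor the epidermal list without number 3. The pronephros counts were the same with the block. Every tested marker had a mean signal above the control level.

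**Figure D5:**
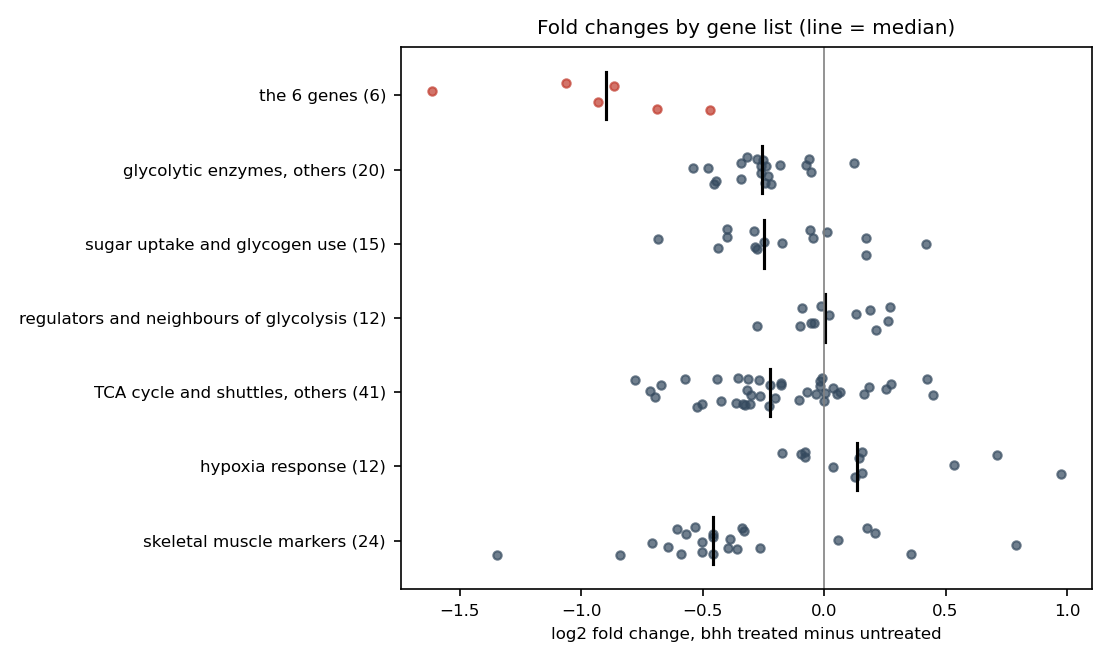
Log2 fold changes (bhh-treated minus untreated, horizontal axis) at the brightest probe sets. They are shown for the 6 genes, the other genes of each pathway list and the skeletal muscle markers. Each point is a gene, the black line is the list's median and the number in brackets counts genes. The 6 genes lie between -1.61 and -0.47 because they were chosen for it. The medians of the other lists drawn run from -0.46 for the muscle markers to 0.14 for the hypoxia genes. The remaining marker lists are not drawn, and their medians run from -0.55 for pronephros to 0.69 for lateral plate and heart.

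The mean profile of the 6 genes over the 6 arrays, each gene centred on its own mean log2 signal, was -0.36, -0.57 and -0.47 on treated arrays 1, 2 and 3, against 0.41, 0.48 and 0.52 on untreated arrays. The members themselves lay at a root mean square difference of 0.13 (tpi1.S) to 0.47 (eno3.L) from it. Of 5392 other probe sets with 1 symbol and a signal above the median, the nearest 5 were those of myh8.L (0.087), tgm2.L (0.087), nasp.S (0.11), ocm4.4.S (0.11) and des.1.S (0.13). Likeness to a profile that was chosen for its fall selects genes that fell, so their fold changes are a description.

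The myosin heavy chain gene myh8.L gave 3337.4, 3341.7 and 3269.6 in treated explants, against 5999.4, 5820.4 and 5972.4 in untreated explants, with almost no spread within either group. The transglutaminase gene tgm2.L gave 393.1, 332.0 and 370.7 in treated explants, against 783.8, 755.1 and 721.2 in untreated explants. The gene des.1.S, for the muscle filament protein desmin, gave 1444.8, 985.1 and 1025.6 in treated explants, against 2057.8, 2195.0 and 2093.0 in untreated explants, with treated array 1 highest as for eno3.L and tpi1.S. The calcium-binding protein gene ocm4.4.S had a log2 fold change of -0.92 ± 0.12, and the histone chaperone gene nasp.S had -0.82 ± 0.16. For both of these genes the probe set was not the brightest of its symbol.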

How the data were processed

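RNA from 3 pools of bhh-treated and 3 pools of untreated stage 24 explants was measured on 1-colour Affymetrix arrays, from 1 µg of total RNA each, per the labels' protocols. The deposited intensity values are 1 linear signal per probe set, which the authors computed; the submitters' processing notes name MAS5 as the tool, without version or settings. Scaling each array to 1 level hides a shift shared by most genes, and dim signals are noisy. Of 15611 probe sets, 120 controls were left out. The platform table gave 1 symbol to 9304 of the remaining 15491, several to 195 and none to 5992; symbols were updated by gene identifier through the RefSeq table of Xenopus_laevis_v10.1 (9227 matched, 77 kept the older name). No array pair shared over 0.25% of values.

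Log2 signals were fitted by lmFit and eBayes with an intensity trend, from limma 3.58.1 (R 4.3.3), with two-sided p adjusted by Benjamini-Hochberg over all probe sets, after removal of the dimmest 25%, leaving 11618. A list is described by counts and medians over the brightest probe set of each symbol. In simulated data over 11618 probe sets the fit recovered 61% of 100 probe sets changed by 1 and 90% of 100 changed by 2 on the log2 scale. For arrays of 1 number, the correlation of the deviations from their group's mean was 0.407, 0.178 and 0.298, each over 0.1, so the numbers from the titles were taken to pair the arrays, and a fit with the replicate number as a block is given where it changes a call. Which source a number marks is not stated, and pairs of unlike number also passed 0.1: treated 3 with untreated 2 gave 0.173, and treated 2 with untreated 3 gave 0.147. In blocked fits without 1 number, 2 pairs remain, and their adjusted p rest on the spread pooled over probe sets. The share of all probe sets called in those fits is not given. A change in a list's count there cannot be told apart from a change in calling over all probe sets.

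The members and lists were chosen with earlier results of these data known. Genes named are the members, their enzyme families, the list genes past the threshold with up to 4 further genes of smallest p, and the 5 nearest profiles; exceptions are marked. Alternatives were quantile normalization, median scaling, an offset of 16, no filter, a 50% filter, no trend, array weights, the block, a mean over probe sets and leaving out each array. No sequences are shown.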

Additional observations from a re-analysis of the deposited data

How the results depend on the processing

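Of 89 log2 fold changes of the 6 genes under 15 alternatives, all 89 were below 0 and 88 stayed within 1 SD of the replicates. For tpi1.S the mean over its probe sets gave -0.64. The filter settings, the fit without the trend and the block cannot change the value of a fold change. Nor can the mean over probe sets for a gene with 1 probe set of its own. The members were also chosen on this contrast, so these counts describe them and give no support. The fold changes ranged from -1.84 to -1.33 for eno3.L, -1.07 to -0.84 for aldoc.L, -0.72 to -0.64 for tpi1.S, -0.55 to -0.32 for pgam2.L, -1.19 to -0.64 for mdh2.L and -1.24 to -0.90 for mdh2.S. With the dimmer 50% removed, mdh2.L had no value. The number of probe sets called, 160, became 95 without the intensity trend, 657 with array weights and 733 with the replicate block, and lay between 60 and 187 with 1 array left out. For the glycolytic enzymes, members included, 3 became 1 without the trend, 5 with array weights and 8 with the replicate block, and 1 to 3 with 1 array left out; the blocked fits without number 1, 2 and 3, chosen after seeing the data, gave 7, 5 and 7. For the TCA cycle and shuttles, 1 became 2 with median scaling, 0 without the trend, 9 with array weights and 8 with the replicate block, and 0 to 3 with 1 array left out; the blocked fits without a number gave 14, 4 and 7. The other alternatives kept these counts within 1.5 times. The cause of these shifts was not tested. Leaving out an array lowers the number of samples. mdh2.L lay near the control level, so its signal limits what can be said of that copy.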

Other observations

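Genes that regulate glycolysis or lie beside it were described by a list of their own. Of 12 measured genes, 6 were below 0 and 6 above (7 below under scaling to a common median), the median log2 fold change was 0.0036, and the bhh-treated arrays did not lie wholly apart from the untreated ones for any of them. None passed the limma test, none reached a raw p under 0.05, and none passed with the replicate block. The gluconeogenic gene fbp1.L, for fructose bisphosphatase, was bright, with 20475.8, 17892.3 and 14590.5 in treated explants, against 24660.4, 22658.4 and 16964.6 in untreated explants, and had -0.28 ± 0.19 (adjusted p = 0.613). The genes of the bifunctional enzymes that set the level of fructose 2,6-bisphosphate, pfkfb4.S and pfkfb1.S, had 0.26 ± 0.17 and 0.19 ± 0.16 at their brightest probe sets (adjusted p = 0.599 and 0.69). A second pfkfb1.S probe set had 0.65 ± 0.19 (adjusted p = 0.176). Its blocked adjusted p was 0.0192, and 0.0582 and 0.137 without number 2 and number 3. The pentose phosphate gene rpia.L had 0.21 ± 0.16 and rose only in the blocked fit without number 1 (adjusted p = 0.0236).

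The array also carries 3 GAPDH control probe sets, along the 5′, middle and 3′ parts of the transcript, which were not in the fit. The 5′ one averaged 3537 ± 288 in treated and 4631 ± 303 in untreated explants (SD, n = 3 each), without overlap. The middle one averaged 10463 ± 3739 in treated and 14208 ± 1353 in untreated explants, and the 3′ one 13199 ± 3482 in treated and 16941 ± 1539 in untreated explants, and both overlapped between the groups. The log2 differences, treated minus untreated, were -0.39, -0.49 and -0.39, near the -0.54 of the gapdh.L probe set in the fit.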
